A study of Mus musculus with 4 samples.

Results

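The genes of MHC class II antigen presentation were H2-Aa, H2-Ab1, H2-Eb1, H2-DMa, H2-DMb1, Cd74 and Ciita, 7 of the genes read by a microarray of mouse liver. Every probe set that the platform annotation gives to one of these symbols was taken, which found 16 of the 45037 probe sets for transcripts. Of these, 14 belong to 1 gene each and cover 6 of the 7 members. The other 2 are annotated to both H2-DMb1 and its neighbour H2-DMb2, so H2-DMb1 has no value of its own here.

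Livers came from Baf60a LKO mice, in which Baf60a was removed specifically in the liver, and from wild-type (WT) mice, with 2 Affymetrix whole-genome mouse expression arrays for each genotype. BAF60a, which the gene Smarcd1 encodes, belongs to SWI/SNF, a complex that remodels chromatin. All mice had the C57BL/6 background, received a high-fat diet from 6 weeks of age for 10 weeks, and were fasted overnight before the liver was taken. Each array carried RNA of its own pool, so each of the 2 replicates per genotype was a pool of unstated size, and the sources used here do not name the Cre line or promoter behind the deletion.

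MHC class II molecules are pairs of an alpha and a beta chain on the cell surface that show peptides from taken-up proteins to CD4+ T cells. The invariant chain CD74 escorts the new pair and blocks its groove, lysosomal proteases trim that chain down, and the H2-DM pair then exchanges the remaining fragment for peptide. Transcription of these genes depends on CIITA, a coactivator that is recruited by factors on a shared promoter module called SXY. In liver the mRNAs are known mainly from Kupffer cells, dendritic cells, B cells and, at lower levels, sinusoidal endothelial cells, and hepatocytes make little of them. The comparison asks whether this readout of antigen-presenting cells differs when BAF60a is missing.

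The promoter module is shown because it is what ties the members to CIITA. Of the 7 members, 4 have a window in the RefSeq promoter table of build GRCm38.p6. In the 250 bases before the start, both strands were searched for a Y box, ATTGG, which is the inverted CCAAT sequence bound by NF-Y, and for an X box of the letters AG, NN, AC, N and GATG in a row, the site of the RFX complex. The 2 motifs share no letters in the windows below. All lie on mouse chromosome 17, capitals mark the matches, and H2-DMb2 stands beside H2-DMb1 because probe sets read them together.
H2-Aa (chr17:34287852-34287931, minus strand): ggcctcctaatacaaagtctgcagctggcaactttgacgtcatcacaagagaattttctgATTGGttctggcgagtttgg
H2-Eb1 (chr17:34305748-34305827, plus strand): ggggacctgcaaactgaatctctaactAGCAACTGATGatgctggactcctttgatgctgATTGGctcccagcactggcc
H2-DMb1 (chr17:34153070-34153149, plus strand): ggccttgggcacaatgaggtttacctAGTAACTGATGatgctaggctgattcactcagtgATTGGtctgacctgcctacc
H2-DMb2 (chr17:34145099-34145178, plus strand): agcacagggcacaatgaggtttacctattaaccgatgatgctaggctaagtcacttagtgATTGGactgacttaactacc
H2-Eb1 and H2-DMb1 held both motifs in the same order, with 22 and 23 bases between the X box and the Y box. The windows of H2-Aa and H2-DMb2 held the Y box letters alone. H2-DMb1 and H2-DMb2 had the same base at 67 of these 80 positions. H2-DMa has 2 windows, of which 1 held a Y box and neither an X box. Over the 32851 promoter windows of the table, 0.816% held the X box letters, 33.8% the Y box letters and 0.292% both. A match describes letters in a window and is not evidence of binding. The search took these exact letters only, so a window without a match may still hold a variant of the box.

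Values are on the log2 scale, and levels of different probe sets are not comparable with each other. Differences are Baf60a LKO minus WT, with the standard error and the 95% confidence interval of a limma fit over all 45037 probe sets (n = 2 arrays per genotype). The array medians were 4.20 and 4.19 in Baf60a LKO, against 4.27 and 4.19 in WT. Background was gauged from 41 probe sets for bacterial transcripts, whose 95th percentiles were 3.02 and 3.12 on the Baf60a LKO arrays and 3.39 and 3.42 on the WT arrays. The targeted gene Smarcd1 read 5.34 and 5.30 in Baf60a LKO, against 5.62 and 5.88 in WT, on the brighter of its 2 probe sets (-0.43 ± 0.14, limma adjusted p = 0.564). Whether the deletion removes the sequence that it reads is not known, so it is a weak check of the labels. Alb, the hepatocyte gene of serum albumin, read 14.1 and 14.2 in Baf60a LKO livers and 14.0 and 14.1 in WT livers. Probe sets whose mean lay under the 95th percentile of every array are called below the background mark.

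MHC class II expression did not pass the test at any probe set in Baf60a LKO livers, although the mean was higher than in WT at all 16. The differences ran from 0.03 to 0.62, with a median of 0.17, while the median over all probe sets was -0.01. None of the 16 had an adjusted p under 0.05 by limma with Benjamini-Hochberg adjustment, and 1, of H2-Ab1, had an unadjusted p under 0.05. Over all probe sets 84, or 0.187%, passed the adjusted threshold, and 8.17% had an unadjusted p under 0.05. Both Baf60a LKO arrays lay above both WT arrays at 4 of the 16, and at 0 they lay below both. The same held for 19.7% of all probe sets above and 19.4% below, so 4 of 16 is close to the background.

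The shared direction rested on 1 WT array. WT replicate 1 had the lowest value of the 4 arrays at 14 of the 16 probe sets, against 33.0% of all probe sets. Without it, 7 of the 16 probe sets were higher and 9 lower in Baf60a LKO, with a median of -0.02. Without WT replicate 2, all 16 were higher, with a median of 0.35. The members' probe sets share cells and pools and are not independent, so these counts describe the arrays and are no test.

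**Figure D1:**
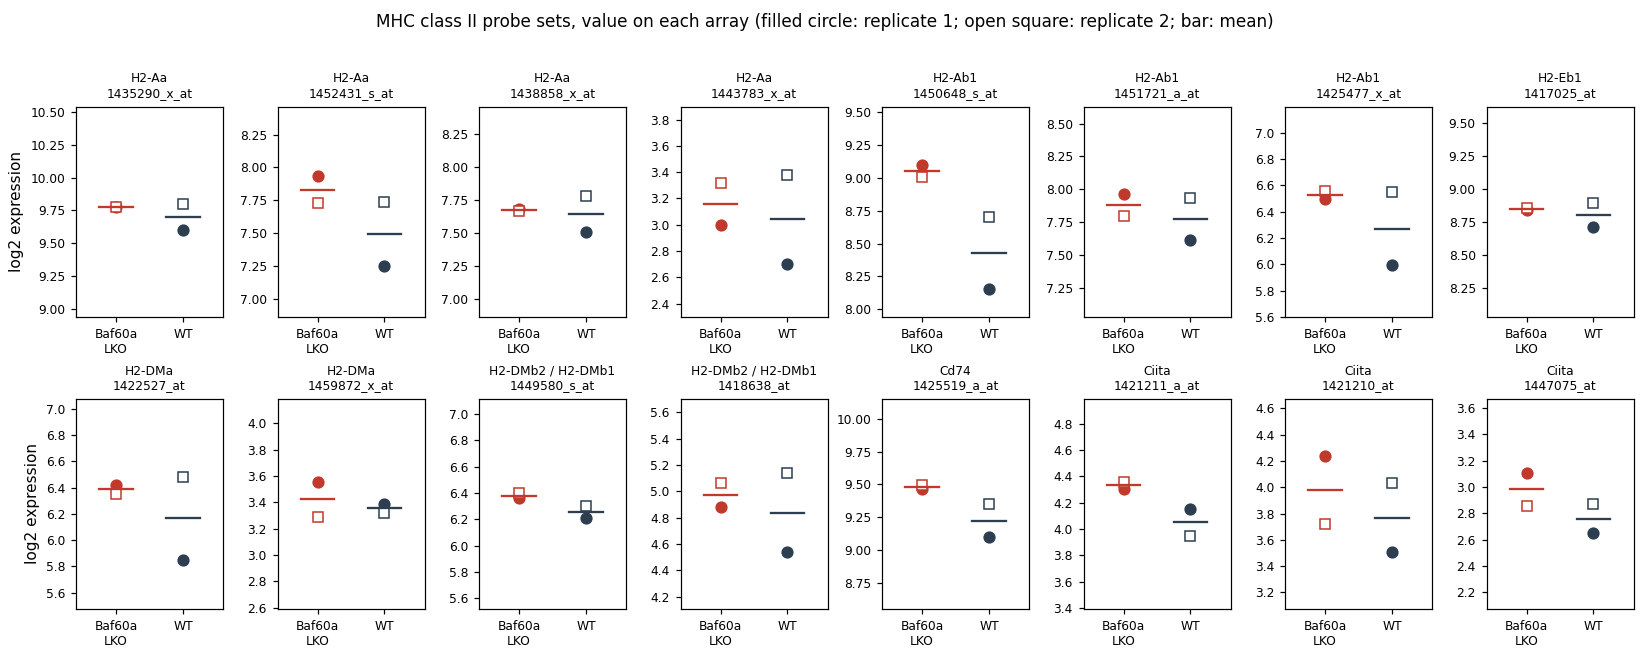
Log2 expression of the 16 MHC class II probe sets on each array, 1 panel per probe set, all panels spanning the same range of log2 units. Filled circles are replicate 1, open squares replicate 2 and bars group means; at 14 of 16 probe sets WT replicate 1 is the lowest point.

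The Baf60a LKO pools lay closer together than the WT pools. Over the 16 probe sets the median gap between replicates was 0.08 in Baf60a LKO and 0.30 in WT. Over all probe sets these medians were 0.12 and 0.20. The WT gap was the wider one at 14 of the 16 class II probe sets and at 63.9% of all probe sets.

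H2-Ab1, the gene of the A beta chain, had the furthest difference of the group, but its 3 probe sets differed in size. On 1450648_s_at it read 9.10 and 9.01 in Baf60a LKO, against 8.16 and 8.70 in WT. Both Baf60a LKO arrays were above both WT arrays, and the WT arrays were further from each other than WT replicate 2 was from Baf60a LKO. The difference was 0.62 ± 0.20, a fold of 1.54 with an interval of 1.09 to 2.18, and it did not pass over all probe sets (limma, unadjusted p = 0.0228, adjusted p = 0.562). An absolute difference at least as large was found at 2.27% of all probe sets.

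The other H2-Ab1 probe sets overlapped between genotypes. The values on 1451721_a_at were 7.97 and 7.80 in Baf60a LKO and 7.62 and 7.93 in WT, a difference of 0.11 ± 0.16. On 1425477_x_at H2-Ab1 read 6.50 and 6.56 in Baf60a LKO, against 5.99 and 6.55 in WT (0.26 ± 0.20). On both of these, WT replicate 2 lay between the Baf60a LKO arrays and WT replicate 1 was lowest. With the 3 probe sets averaged the difference was 0.33 (limma, adjusted p = 0.576). Without WT replicate 1 it was 0.35, -0.05 and -0.02 on 1450648_s_at, 1451721_a_at and 1425477_x_at.

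H2-Aa, which encodes the A alpha chain that pairs with the H2-Ab1 product, was level between the genotypes on its brightest probe set. It read 9.78 and 9.78 in Baf60a LKO, against 9.60 and 9.80 in WT. The Baf60a LKO values fell between the WT values, and the difference was 0.08 ± 0.13, with an interval of -0.25 to 0.40 (limma, adjusted p = 0.883). A second bright probe set, 1438858_x_at, gave 0.03 ± 0.14.

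The probe set 1452431_s_at gave H2-Aa values of 7.93 and 7.73 in Baf60a LKO, against 7.25 and 7.74 in WT. Here WT replicate 2 lay between the Baf60a LKO arrays, and the difference of 0.34 ± 0.20 was 0.09 without WT replicate 1. The last, 1443783_x_at, was near background, and its WT arrays, at 2.70 and 3.38, enclosed both Baf60a LKO arrays.

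H2-Eb1, the gene of the E beta chain, read 8.84 and 8.86 in Baf60a LKO, against 8.71 and 8.90 in WT, on its 1 probe set. The groups overlapped, and the difference was 0.04 ± 0.13, a fold of 1.03 with an interval of 0.824 to 1.29 (limma, adjusted p = 0.941). It was -0.02 after a further quantile normalization and -0.03 after cyclic loess, and -0.05 without WT replicate 1. The partner gene H2-Ea is disrupted in the C57BL/6 strain. Its brightest probe set read 6.21 and 6.39 in Baf60a LKO, against 7.07 and 6.25 in WT. Whether this signal is H2-Ea mRNA in this strain was not tested. On that probe set WT replicate 1 was the highest array, and the difference was -0.36 ± 0.27. The other 2 H2-Ea probe sets lay below the background mark.

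Cd74, the invariant chain, read 9.47 and 9.49 in Baf60a LKO, against 9.10 and 9.35 in WT. Both Baf60a LKO arrays were above both WT arrays, and WT replicate 2 lay nearer to them than to WT replicate 1. The difference of 0.25 ± 0.14, a fold of 1.19 with an interval of 0.938 to 1.52, did not pass (limma, adjusted p = 0.659), and it was 0.13 without WT replicate 1.

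H2-DMa, the alpha chain of the peptide exchanger, read 6.42 and 6.35 in Baf60a LKO, against 5.85 and 6.48 in WT. WT replicate 2 was the highest array and WT replicate 1 the lowest. The difference of 0.22 ± 0.22 became -0.09 without WT replicate 1 and 0.54 without WT replicate 2. Its second probe set, near background, gave 0.07 ± 0.14.

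The beta chain of that exchanger is encoded by H2-DMb1 and H2-DMb2, and the probe sets that read both gave 0.13 ± 0.12 and 0.13 ± 0.22. On the brighter of these the values were 6.36 and 6.40 in Baf60a LKO, against 6.21 and 6.30 in WT. The groups did not overlap there, and WT replicate 1 was again the lowest array. H2-DMb2 alone differed by 0.19 ± 0.13 on its brightest probe set, and by -0.10 ± 0.20 and -0.03 ± 0.14 on the other 2.

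Ciita, the coactivator of the group, had 1 of its 3 probe sets at background. On its brightest probe set, 1421211_a_at, it read 4.31 and 4.36 in Baf60a LKO, against 4.15 and 3.95 in WT. The Baf60a LKO arrays were above both WT arrays, and in contrast to the other members WT replicate 2 was the lowest. The difference was 0.28 ± 0.13, with an interval of -0.05 to 0.62, and did not pass (limma, adjusted p = 0.640). It was 0.38 without WT replicate 1 and 0.18 without WT replicate 2. The probe set 1421210_at overlapped between genotypes, with 4.24 and 3.72 in Baf60a LKO and 3.50 and 4.03 in WT. The third, 1447075_at, was the 1 class II probe set below the background mark, against 26.1% of all probe sets.

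**Figure D2:**
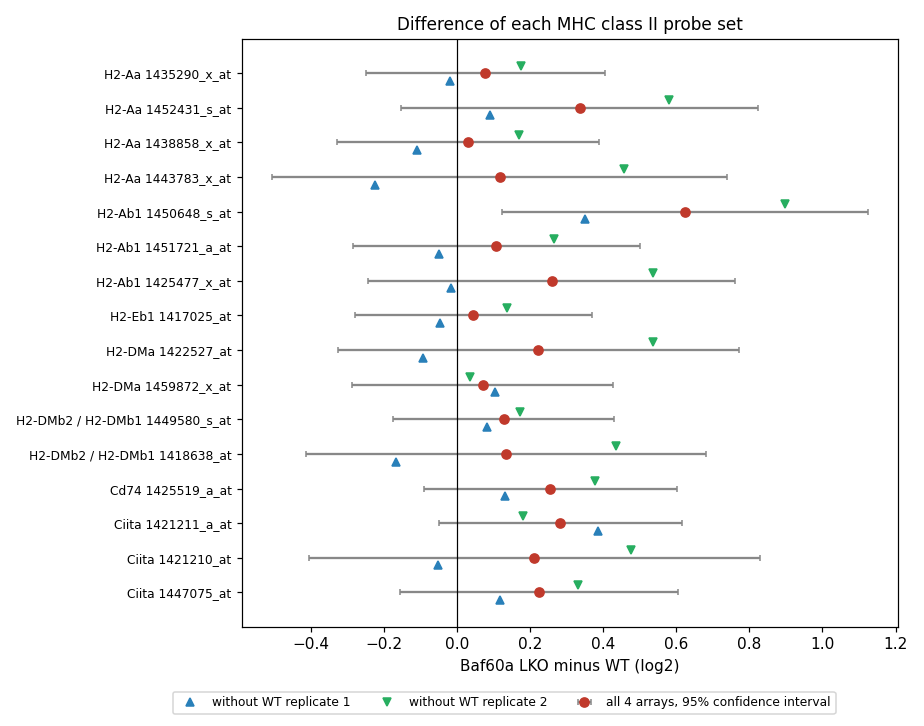
Difference of each MHC class II probe set, Baf60a LKO minus WT on the log2 scale, with its 95% confidence interval (circles and bars, 4 arrays) and the value without either WT array (triangles). All 16 circles lie at or right of 0.03; without WT replicate 1, 9 of 16 values lie below 0.

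Taken by the brightest probe set of each, the 6 measured members had a median difference of 0.24, against 0.00 over 18193 genes read in the same way. That median was 0.06 without WT replicate 1 and 0.28 without WT replicate 2. The 6 intervals reached upper bounds of 0.37 for H2-Eb1 to 1.12 for H2-Ab1, and lower bounds of -0.33 for H2-DMa to 0.12 for H2-Ab1.

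Among 7835 genes with a mean of at least 6, the 5 whose values over the 4 arrays were nearest to the members' mean profile were Tlk1, Fam133b, Wbp4, Haus4 and Calcoco1. Their Euclidean distances from it were 0.0174 to 0.0226 log2 units over 4 arrays, after each profile was centred on its own mean. The members' mean profile stood at 0.13 and 0.12 on the Baf60a LKO arrays, and at -0.26 and 0.01 on the WT arrays. The gap between the WT arrays thus exceeded the gap between WT replicate 2 and either Baf60a LKO array.

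None of the other 19 genes of the class II route passed (limma, 0 at adjusted and 0 at unadjusted p under 0.05), with means higher in Baf60a LKO at 13 and lower at 6. Over all 18193 genes 21 rose and 37 fell at the adjusted threshold, and 1726 had an unadjusted p under 0.05. So 0 passing in a list of this length is close to the share over all genes. The 19 genes had a median difference of 0.11, and 0.04 without WT replicate 1. Ctss, the protease that trims the invariant chain in most antigen-presenting cells, read 10.4 and 10.4 in Baf60a LKO, against 10.1 and 10.5 in WT. Lgmn, a lysosomal asparagine-specific protease, differed by 0.36 ± 0.18 and Ifi30, the lysosomal thiol reductase, by 0.17 ± 0.13. Marchf8, a ubiquitin ligase of surface proteins, differed by 0.38 ± 0.20. The costimulatory ligand genes Cd86 and Cd80 and the receptor gene Cd40 differed by 0.07 ± 0.27, -0.35 ± 0.31 and -0.28 ± 0.14.

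Factors that act at the SXY module were listed together with the SWI/SNF subunits Smarca4 and Smarcd1, 9 measured genes in all. A role of BAF60a at the module was not tested. Of the 9, 0 passed by limma and 2 had an unadjusted p under 0.05. Over all 18193 genes 1726 had an unadjusted p under 0.05, while 21 rose and 37 fell at the adjusted threshold. The 2 listed genes were Smarcd1 and Rfxank, both lower in Baf60a LKO. Smarcd1 is the targeted gene, so of the other listed genes only Rfxank is set against that share. Rfxank, a subunit of the RFX complex on the X box, read 5.68 and 5.75 in Baf60a LKO, against 6.01 and 6.08 in WT (-0.33 ± 0.12, adjusted p = 0.595). The groups did not overlap and each pair of replicates was close. Its partners Rfx5 and Rfxap differed by 0.25 ± 0.14 and -0.01 ± 0.17. Smarca4, the SWI/SNF ATPase BRG1, which is required for induction of CIITA in human cells, differed by -0.23 ± 0.13. The 9 had a median of 0.14, and -0.04 without WT replicate 1.

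Genes of the interferon-gamma route that induces Ciita also did not pass, 0 of 10 measured (limma, 0 at unadjusted p under 0.05), with a median of 0.05 and -0.07 without WT replicate 1. Irf1, a transcription factor at an inducible Ciita promoter, differed by 0.07 ± 0.14, and Socs1, a feedback inhibitor of the pathway, by -0.38 ± 0.17. Ifng was below the background mark. Of 16 measured genes of class I presentation, the route for peptides from inside the cell, 0 passed by limma and 0 had an unadjusted p under 0.05, with a median of 0.07 and 0.04 without WT replicate 1. H2-K1, a class I heavy chain, differed by 0.18 ± 0.12, the light chain B2m by 0.06 ± 0.12, the peptide transporter gene Tap1 by 0.32 ± 0.15 and the class I coactivator Nlrc5 by 0.28 ± 0.17. Over all 18193 genes 21 rose and 37 fell at the adjusted threshold, and 1726 had an unadjusted p under 0.05. So 0 passing in lists of this length is close to the share over all genes.

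The cells that carry class II were followed by marker genes. In bulk tissue, fewer cells of a type and less RNA per cell cannot be told apart. No gene passed by limma in the lists of Kupffer cells (14 measured), all leukocytes (10), monocytes and recruited macrophages (10), dendritic cells (11), B cells (10) or sinusoidal endothelial cells (12). At an unadjusted p under 0.05 there were 2, both in the monocyte and macrophage list, against 1726 of all 18193 genes. At the adjusted threshold 21 of these 18193 genes rose and 37 fell.

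The Kupffer cell and leukocyte lists were low on WT replicate 1, as the class II members were. The mean log2 level of the 14 Kupffer cell genes was 8.76 and 8.72 in Baf60a LKO, against 8.44 and 8.87 in WT. WT replicate 1 was the lowest array for 12 of the 14, and WT replicate 2 had the highest mean. The 10 genes of all leukocytes averaged 7.49 and 7.43 in Baf60a LKO, against 7.29 and 7.68 in WT. By comparison, the 6 class II members averaged 7.98 and 7.98 in Baf60a LKO, against 7.60 and 7.86 in WT. The part of cell numbers in the class II values was not tested.

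WT replicate 1 was the lowest array for most members and for most genes of both marker lists. Leaving it out therefore lowers their medians, which is no separate result. The median difference was then 0.06 for the 6 members, -0.11 for Kupffer cell genes and -0.26 for the leukocyte list, against 0.24, 0.08 and -0.01 with all arrays. Cd5l and Csf1r, a secreted macrophage protein and the receptor that macrophages need to survive, differed by -0.03 ± 0.13 and 0.13 ± 0.15. Timd4, a receptor of resident Kupffer cells, read 6.22 and 6.08 in Baf60a LKO, against 5.42 and 6.32 in WT. Hmox1, the heme oxygenase of macrophages that clear red cells, read 6.48 and 6.75 in Baf60a LKO, against 5.50 and 6.71 in WT. For both genes WT replicate 1 stood apart and the other 3 arrays lay close together. In the leukocyte list, Lcp1, an actin-bundling protein, differed by 0.24 ± 0.12, Ptpn6 by -0.16 ± 0.13 and Rac2 by -0.17 ± 0.17.

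The low mean on WT replicate 1 was not limited to immune lists. Hepatocyte genes, 10 measured, averaged 12.81 and 12.86 in Baf60a LKO, against 12.75 and 12.82 in WT, so WT replicate 1 was lowest there too, by a narrower margin. It was also the lowest array by the mean of the class II factors, the interferon-gamma route, class I presentation, neutrophil genes and cholangiocyte genes. For cholangiocyte genes, however, both WT arrays were low, at 3.79 and 3.97, against 4.38 and 4.70 in Baf60a LKO. WT replicate 1 was not the lowest for dendritic cell, B cell, T and NK cell, monocyte and macrophage, sinusoidal endothelial or stellate cell genes, nor over all genes. Dendritic cell genes averaged 4.39 and 4.37 in Baf60a LKO, against 4.47 and 4.38 in WT, with a median difference of 0.01. Flt3, the receptor for the growth factor of dendritic cells, differed by -0.15 ± 0.21, Naaa by 0.04 ± 0.14, Siglech by -0.28 ± 0.18 and Irf4, near background, by -0.19 ± 0.13. The 10 measured B cell genes averaged 4.09 and 4.08 in Baf60a LKO, against 4.22 and 4.24 in WT, a median of -0.14. Ighm, the IgM heavy chain, differed by -0.07 ± 0.16, the joining chain gene Jchain by -0.20 ± 0.19 and Cd79b, a signal chain of the B cell receptor, by -0.36 ± 0.15. Cr2 differed by -0.38 ± 0.20 near background, with 2.93 and 2.75 in Baf60a LKO, against 3.48 and 2.96 in WT.

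Sinusoidal endothelial genes averaged 7.86 and 7.75 in Baf60a LKO, against 7.76 and 7.93 in WT, with a median difference of -0.09. Fcgr2b, Clec4g, Stab2 and Lyve1 differed by -0.13 ± 0.13, -0.09 ± 0.14, -0.19 ± 0.12 and 0.36 ± 0.23. The monocyte and macrophage list had a median of -0.14, with Lyz2 and Mpeg1, both general markers of myeloid phagocytes, at -0.15 ± 0.19 and -0.13 ± 0.16. Its 2 furthest genes had opposite signs. Cd9, a tetraspanin, read 7.72 and 7.42 in Baf60a LKO, against 6.54 and 6.84 in WT (0.88 ± 0.17, limma adjusted p = 0.286), and Gpnmb read 4.77 and 4.89 in Baf60a LKO, against 5.34 and 5.40 in WT (-0.53 ± 0.13, adjusted p = 0.402). The hepatocyte genes had a median of 0.09, with Apoa1, an apolipoprotein of HDL, at -0.04 ± 0.12, Tat, which degrades tyrosine, at -0.34 ± 0.15 and Pck1, an enzyme of gluconeogenesis, at 0.31 ± 0.14.

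**Figure D3:**
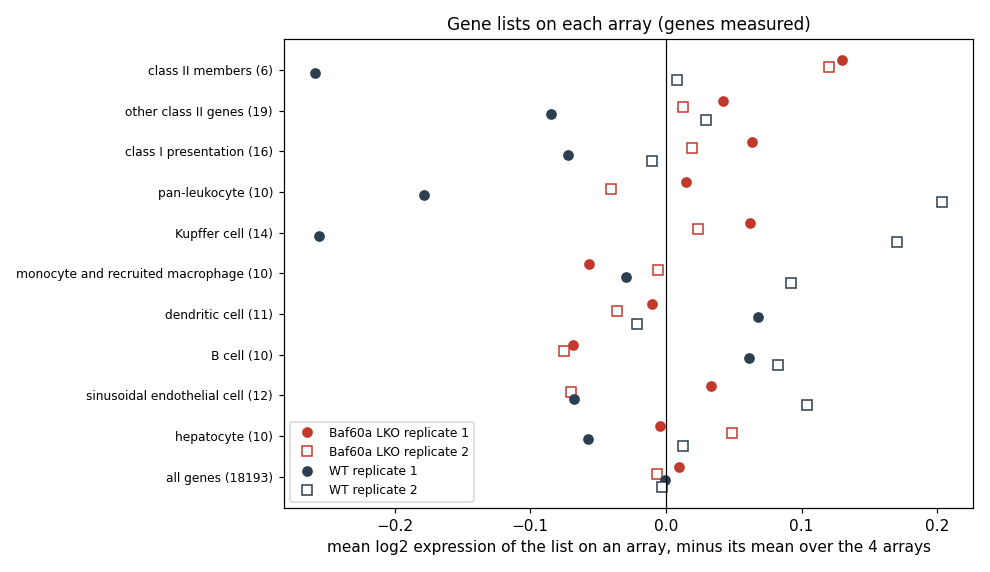
Mean log2 expression of a part of the gene lists and of all genes on each array, centred on the mean over the 4 arrays, with the number of genes measured in brackets. WT replicate 1 (filled dark circles) lies lowest for the class II members, the other class II genes, class I presentation, and the leukocyte, Kupffer cell and hepatocyte lists. It is not lowest for the monocyte and macrophage, dendritic cell, B cell and sinusoidal endothelial lists or for all genes.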

How the data were processed

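The deposited table holds 1 value per probe set and array. The authors deposited log2 values, as their range shows. The submitters' processing notes name RMA, affy and limma. RMA subtracts background, equalises the arrays' distributions and joins the probes of a set into 1 value. A shift shared by most genes of an array is thereby reduced. The array medians still differed somewhat, at 4.27 on WT replicate 1 and 4.19 to 4.20 on the others. No read depth exists for arrays, and their number, 4, limits the precision. Detection calls were not used here.

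Of 45101 probe sets, 64 controls were left out. Symbols come from the platform annotation, updated by Entrez number through the RefSeq table of GRCm38.p6 (34741 matched, 204 kept as given, 932 with several genes, 9160 unlisted). Arrays were grouped by their labels, and Baf60a LKO minus WT was fitted in R 4.3.3 by limma 3.58.1, lmFit then eBayes, 2-sided, with Benjamini-Hochberg adjustment over 45037 probe sets and a threshold of 0.05. The fit had 2 residual and 3.75 prior degrees of freedom. On simulated data with known changes it recovered 14% of changes of 1 log2 unit and 96% of changes of 2 log2 units. Changes as small as those of the class II probe sets, 0.03 to 0.62, were not simulated. P-values reflect the spread between pools. A gene in a list is read by its brightest probe set. The background mark is the lowest of the 4 arrays' 95th percentiles over bacterial probe sets.

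The members, the 15 other lists and their genes were chosen with earlier results of these data known. All members are named, with any gene of the class II route, its factors and its interferon route, the 2 brightest and the 2 furthest genes of each other list, and the 5 nearest profiles. Cxcr2 is named besides, for its unadjusted p. Of 183 list entries outside the members, those without a probe set of their own are not analysed here. Figures were drawn with matplotlib 3.10.9. The alternatives were 3 further normalizations, the brighter 50% of probe sets, 1 row per gene, leaving out _x_at and _s_at probe sets, eBayes with a trend and robust variances, the replicate number as a block, and leaving out each array.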

Additional observations from a re-analysis of the deposited data

Results flagged for a closer look

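Probe sets for Cre recombinase, which the array carries as controls and which entered no comparison above, read higher on both Baf60a LKO arrays than on both WT arrays. By mean log2 value, the differences were 3.41, 2.08, 1.26 and 0.648 on the log2 scale for the 4 probe sets. On the one with the widest difference the values were 5.87 and 6.22 in Baf60a LKO, against 2.80 and 2.48 in WT. Those WT values, and the WT values of the probe set that differed by 1.26, lay under the bacterial 95th percentiles of the WT arrays, 3.39 and 3.42, so these differences do not measure a size. The probe set that differed by 0.648 lay under the percentiles of all 4 arrays and shows no signal above background. The one that differed by 2.08 was above them on all 4 arrays, at 5.72 and 5.80 in Baf60a LKO, against 3.91 and 3.45 in WT. The first 3 are given here as signal outside the measured genes.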

How the results depend on the processing

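None of the members' probe sets passed by limma in any other setting that kept all 4 arrays. In these settings 0 to 2 of up to 16 had an unadjusted p below the threshold. The 2 came after quantile normalization and cyclic loess, where 3971 and 4042 of all 45037 probe sets were below it. Over all probe sets, the 84 calls became 139 after quantile and 162 after loess normalization, 146 with array medians subtracted, 173 with a trended and robust eBayes and 4 with a replicate block (3929 at an unadjusted p under 0.05), and 0 with any 1 array left out (1196 to 10697 at an unadjusted p under 0.05). The replicate numbers are not said to pair pools, and the block, which leaves 1 residual degree of freedom, called 0 class II probe sets. The correlation of the replicate differences of Baf60a LKO and WT was 0.15 over probe sets. With 1 array left out, the lone pool of its group is assumed to vary like the other group. After quantile and after loess normalization, 14 of the members' 16 probe sets were higher in Baf60a LKO. The members' median was then 0.162 and 0.155, against 0.238 as deposited. H2-Eb1 turned to -0.0151 after quantile and -0.0349 after loess normalization, and ran from -0.0467 to 0.14 with 1 array left out. H2-Aa ran from -0.0206 to 0.17, H2-DMa from -0.0930 to 0.54, H2-Ab1 from 0.35 to 0.90, Cd74 from 0.13 to 0.38 and Ciita from 0.18 to 0.38, and the members' median from 0.06 to 0.28. In these leave-one-out ranges the values below 0 came without WT replicate 1. The cause of these turns was not tested. H2-Ab1 was at 0.11 without _x_at and _s_at probe sets, which leaves H2-Aa without a value, and Ciita has none among the brighter 50%. Of 195 medians of the other lists, 182 moved by less than the spread between replicates. This count is no measure of stability. The brightest probe set per gene, the trended and robust eBayes and the replicate block leave such a median unchanged by construction. Leaving out 1 array moves a gene's group mean by a part of its replicate gap, and such gaps also set that spread.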

Other observations

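Other cell lists were measured beside the class II genes, and none of their genes passed by limma. In the neutrophil list, 6 genes measured, S100a8 read 5.97 and 6.58 in Baf60a LKO, against 4.90 and 5.87 in WT (0.89 ± 0.36, adjusted p = 0.610), and its dimer partner S100a9 differed by 0.64 ± 0.32. Csf3r, the receptor for the neutrophil growth factor, differed by -0.07 ± 0.16. The list median was -0.0036, with means higher in Baf60a LKO at 3 genes and lower at 3. The T and NK cell list had a median of -0.0023 over 11 genes, with Ccl5, a chemokine, at -0.0023 ± 0.12, Cd3d, a chain of the T cell receptor complex, at 0.10 ± 0.13 and Cd4 at -0.23 ± 0.15. Cd2, below the background mark, differed by -0.44 ± 0.13. All 11 stellate cell genes had a lower mean in Baf60a LKO, with a median of -0.10. The collagen gene Col3a1 differed by -0.35 ± 0.13, Acta2, the smooth muscle actin, by -0.23 ± 0.14, Ecm1 by -0.11 ± 0.14 and Dcn, a matrix proteoglycan, by -0.02 ± 0.12. All 7 cholangiocyte genes had a higher mean, with a median of 0.45, from 0.01 to 1.34 for Pkhd1, a gene of the primary cilium. Epcam, an epithelial adhesion molecule, differed by 1.17 ± 0.21. In the neutrophil list the unadjusted limma p was under 0.05 for 2 genes. These were S100a8 and, in the other direction, Cxcr2 (-0.38 ± 0.14), and not S100a9. The unadjusted p was under 0.05 for 1 gene in the T and NK cell list, 1 in the stellate cell list and 4 in the cholangiocyte list. Over all 18193 genes it was under 0.05 for 1726, while 21 rose and 37 fell at the adjusted threshold.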
